A study of Homo sapiens with 4 samples.

Results

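The 10 genes described here are RELA, REL, RELB, NFKB1, NFKB2, NFKBIA, NFKBIB, NFKBIE, BCL3 and TNFAIP3. They encode the subunits of NF-κB and proteins that restrain it or, for BCL3, join its p50 and p52 homodimers on DNA. They were taken from the gene count table by Ensembl identifier and symbol, and are 10 of its 20348 genes. RNA was sequenced from K562, an established line from chronic myeloid leukemia, and THP-1, an established line from acute monocytic leukemia. Each line was kept for 72 h in DMSO, the solvent control, or in 100 nM periplocin, a cardiac glycoside from the bark of Periploca. Each of the 4 conditions is 1 library from a single biological replicate, so no difference between conditions has a replicate check, and each fold change compares a pair of libraries and not the conditions they stand for. The controls are blank by their titles and DMSO by their library names, and the study's text was followed in naming them. Where 4 values follow each other, they stand for untreated K562, treated K562, untreated THP-1 and treated THP-1.

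NF-κB is a family of dimeric transcription factors. RELA (p65), REL (c-Rel) and RELB carry a transactivation domain, whereas NFKB1 and NFKB2 encode the precursors p105 and p100, which are processed to p50 and p52 and which hold dimers in the cytoplasm while they are intact. IκB proteins keep dimers out of the nucleus until an IκB kinase marks them for degradation, and several of the genes for these proteins are themselves NF-κB targets, so that the pathway feeds back on itself. In myeloid cells it drives inflammatory and survival genes. All values here are mRNA, which shows neither the location nor the phosphorylation of the proteins.

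The libraries held between 16381149 and 20622694 counts. Levels are given as CPM, counts scaled to a common library total with TMM, a method that assumes most genes are alike between libraries. Each log2 fold change has a 95% exact binomial interval of the counts, called the counting interval below. It covers counting error only, and reads amplified by PCR without molecular identifiers are not independent molecules. In bulk RNA, fewer cells and less RNA per cell cannot be told apart. The labels were checked against markers: the summed level of 10 erythroid and megakaryocytic markers was 2172.4 CPM in K562 DMSO and 9258.1 CPM in K562 periplocin, against 11.4 and 8.87 CPM in THP-1, and 10 monocytic markers summed to 2624.9 and 2494.3 CPM in THP-1 DMSO and periplocin against 94.2 and 86.2 CPM in K562. The higher erythroid and megakaryocytic sum with periplocin stands beside every K562 difference below, and its part in them was not tested. Within the monocytic sum, single markers moved apart in THP-1: FCGR1A was 2.71-fold and ITGAM 2.17-fold higher with periplocin and MPO 2.58-fold lower, and their part in the THP-1 differences was not tested. In K562 this sum also covers markers that moved apart. With periplocin, FCGR1A was 4.67-fold lower (11 and 2 counts) and CEBPA 3.19-fold lower (23 and 7 counts). CD33 was 2.90-fold, AZU1 2.05-fold and SPI1 1.93-fold lower, while ITGAM was 2.21-fold and LYZ 1.39-fold higher. The part of these markers in the K562 differences was not tested. Summed T cell markers reached at most 8.85 CPM, in K562 DMSO, where CD3D held 7.09 CPM. B cell markers reached at most 9.99 CPM, in THP-1 periplocin, where PAX5 held 8.75 CPM. CD2 and MS4A1 were at 0 in all 4 libraries. Summed fibroblast markers were at most 4.95 CPM. Epithelial markers reached 43.5 CPM in K562 DMSO, all of it from EPCAM, and KRT5 and KRT14 were at 0. Mitochondrial genes took 5.62% and 2.07% of counts in K562 DMSO and periplocin, and 5.24% and 3.93% in THP-1.

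Several of these genes carry NF-κB recognition sequences next to their own start sites, and these are shown because such sequences are the known route of the feedback. RefSeq promoter windows (GRCh38.p14, 250 bases before to 50 after each start) were found for 8 of the 10 genes, as 13 windows. RELB and NFKBIE had no entry. Both strands were searched for the NF-κB decameric consensus, and overlapping matches occur because the consensus is nearly palindromic. A match was found in 8 of 13 windows (61.5%) and in 7 of the 8 genes, against 3956 of 35116 windows (11.3%) and 3619 of 27305 genes (13.3%) over the whole table. At least 2 matches were found in 5 of the 13 windows (38.5%) and in 715 of all windows (2.04%). Neither RELA window held a match, which says only that these letters are not in it. The sequences below run 5′ to 3′ on the strand of the gene, and capitals mark the bases of 1 match in each. Not every match is shown, and bases of overlapping or neighbouring matches outside the capitals are left in lower case. They are REL at chr2:60881517-60881546, NFKB1 at chr4:102501300-102501329, NFKB2 at chr10:102394461-102394490 and chr10:102395674-102395703 before different start sites, NFKBIA at chr14:35404811-35404840 on the minus strand, NFKBIB at chr19:38899931-38899960, TNFAIP3 at chr6:137867182-137867211 and BCL3 at chr19:44748700-44748729.
REL: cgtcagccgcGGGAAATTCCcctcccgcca
NFKB1: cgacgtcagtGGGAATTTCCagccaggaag
NFKB2, first: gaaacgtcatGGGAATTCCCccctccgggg
NFKB2, second: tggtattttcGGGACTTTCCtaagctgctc
NFKBIA: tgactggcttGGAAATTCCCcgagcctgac
NFKBIB: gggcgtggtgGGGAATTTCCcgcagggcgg
TNFAIP3: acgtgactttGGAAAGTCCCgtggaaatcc
BCL3: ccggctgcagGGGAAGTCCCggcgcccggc
The first capital base lies at position -47 from the start site in REL, -49 in NFKB1, -107 and -21 in NFKB2, -81 in NFKBIA, -28 in NFKBIB, -67 in TNFAIP3 and 3 in BCL3. A match is a description of the sequence and shows neither binding nor its effect.

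With periplocin, the inhibitor gene NFKBIA was 2.48-fold higher in K562 and 1.52-fold higher in THP-1, and REL was 1.35-fold and 1.83-fold higher. BCL3 was 2.79-fold higher in THP-1, while in K562 its counting interval reached no change at a fold of 1.37. RELA, the most studied subunit, was 1.12-fold and 1.13-fold higher. NFKB2 moved in opposite directions: it was 1.87-fold lower in K562 and 1.56-fold higher in THP-1. All 10 genes had at least 10 counts in 1 library of each pair and were compared in both lines. A difference of at least 2-fold was reached by 1 gene in each line, NFKBIA in K562 and BCL3 in THP-1, both higher, and 0 genes were lower by that much. Over all genes compared, 10.5% were at least 2-fold higher and 12.8% at least 2-fold lower in K562 (12736 genes), and 9.47% and 12.4% in THP-1 (13367 genes). One gene in 10 is near the background share of higher genes, so the count itself sets nothing apart, and the single genes and their sizes are what the data give.

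**Figure D1:**
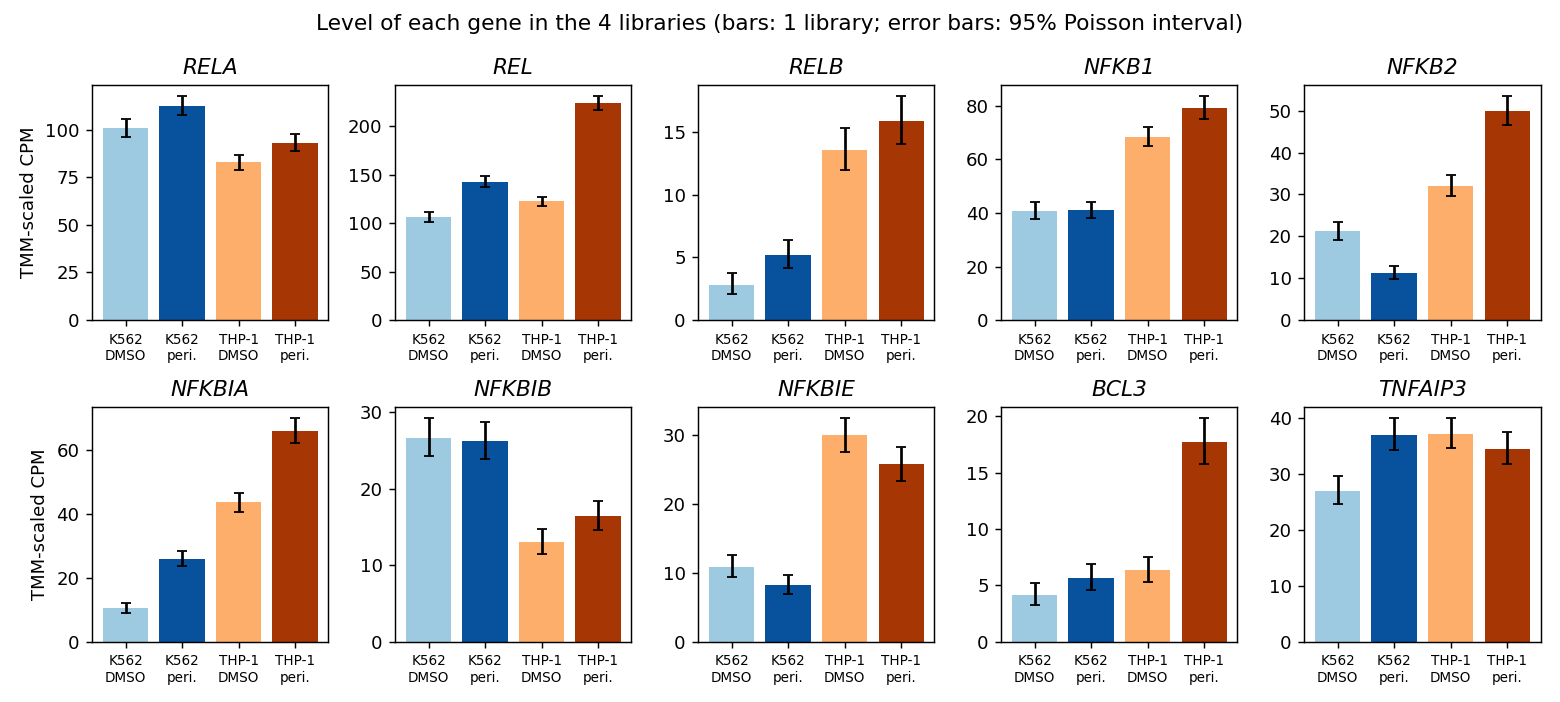
Level of each of the 10 genes in TMM-scaled CPM (vertical axis, from 0, its own scale for each gene) in the libraries of each line without and with periplocin; each bar is 1 library and the error bar is its 95% Poisson interval. NFKBIA stands at 10.4, 26.0, 43.5 and 65.9 CPM, BCL3 is highest in THP-1 periplocin at 17.7 CPM, and RELA lies between 82.8 and 112.5 CPM.

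RELA (ENSG00000173039, GRCh38 chromosome 11, 65653596 to 65663094, minus strand) encodes p65, the usual partner of p50. Its counts were 1718, 1955, 1635 and 1576, or 100.7, 112.5, 82.8 and 93.2 CPM. The log2 fold change was 0.16 (counting interval 0.07 to 0.25) in K562 and 0.17 (0.07 to 0.27) in THP-1. RELA changed by nearly the same small amount in both lines, and the difference between the lines was 0.01 with a standard error (SE) of 0.07. Among genes averaging 5 CPM or more it stood at percentile 59.5 of the log2 fold changes in K562 and 62.5 in THP-1, close to the middle.

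REL (ENSG00000162924, chromosome 2, 60881521 to 60931610) encodes c-Rel, the subunit most tied to blood cells. Its counts were 1810, 2480, 2421 and 3790 and its levels 106.1, 142.7, 122.5 and 224.0 CPM. REL was higher with periplocin in both lines, and THP-1 periplocin held the highest level. On the log2 scale the change was 0.43 (0.34 to 0.52) in K562 and 0.87 (0.80 to 0.94) in THP-1, larger in THP-1 by 0.44 with an SE of 0.06 from counting. REL stood at percentile 74.8 in K562 and 92.0 in THP-1. Of its annotated exon bases, 43.3% are shared with AC010733.2, a noncoding RNA on the same strand that is not among the counted genes, so reads from that RNA cannot be told apart from REL in this stretch.

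RELB (ENSG00000104856, chromosome 19, 45001430 to 45038198), the partner of p52 in the noncanonical branch, was the least abundant subunit. Counts were 48, 90, 268 and 268, or 2.81, 5.18, 13.6 and 15.8 CPM. Both K562 libraries lay below both THP-1 libraries. In K562 the log2 fold change was 0.87, with a wide counting interval of 0.36 to 1.42 that reflects 48 counts in DMSO. In THP-1 it was 0.22 (-0.03 to 0.47), which at this depth and with this scaling is not distinguishable from no change.

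NFKB1 (ENSG00000109320, chromosome 4, 102501329 to 102617302) encodes p105, the precursor of p50. It had 697, 713, 1354 and 1342 counts, or 40.8, 41.0, 68.5 and 79.3 CPM. In K562 no difference was detectable at this depth, with a log2 fold change of 0.01 (-0.15 to 0.16), whereas THP-1 gave 0.21 (0.10 to 0.32). The larger contrast was between the lines, since THP-1 DMSO was above K562 DMSO by 0.75 (0.61 to 0.88) on the log2 scale.

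NFKB2 (ENSG00000077150, chromosome 10, 102394110 to 102402529) encodes p100, the precursor of p52 and an inhibitor of RELB. Counts were 361, 196, 633 and 846, which is 21.2, 11.3, 32.0 and 50 CPM. K562 periplocin was the lowest of the 4 libraries and THP-1 periplocin the highest. Periplocin against DMSO gave a log2 fold change of -0.91 (-1.17 to -0.65) in K562 and 0.64 (0.49 to 0.79) in THP-1, a difference of 1.55 with an SE of 0.15 from counting. NFKB2 was the only one of the 10 genes whose counting intervals lay on opposite sides of no change in the lines, and 19.4% of the 11672 genes compared in both lines did the same. It stood at percentile 10.6 in K562 and 87.0 in THP-1.

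NFKBIA (ENSG00000100906, chromosome 14, 35401511 to 35404749, minus strand) encodes IκBα, which binds RELA and p50 dimers and returns them to the cytoplasm. It had 178, 451, 859 and 1115 counts, or 10.4, 26.0, 43.5 and 65.9 CPM. The libraries are ordered by line first, since both THP-1 libraries exceed both K562 libraries, and by treatment within each line. The log2 fold change was 1.31 (1.06 to 1.57) in K562 and 0.60 (0.47 to 0.73) in THP-1, smaller in THP-1 by 0.71 with an SE of 0.14, and the gene stood at percentile 96.6 in K562 and 85.7 in THP-1. The 250 bases before its start, chr14:35404750-35404999 on the minus strand, are printed for the gene with the largest fold change in K562, with the matched bases in capitals.
NFKBIA upstream: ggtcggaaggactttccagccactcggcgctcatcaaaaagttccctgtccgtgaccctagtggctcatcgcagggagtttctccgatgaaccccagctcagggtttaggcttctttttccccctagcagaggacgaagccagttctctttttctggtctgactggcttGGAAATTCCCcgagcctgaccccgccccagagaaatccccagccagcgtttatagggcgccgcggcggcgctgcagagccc

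NFKBIB (ENSG00000104825, chromosome 19, 38899700 to 38908893) encodes IκBβ, which holds the same dimers but is degraded more slowly. Counts were 456, 456, 257 and 278, and levels were 26.7, 26.2, 13.0 and 16.4 CPM. It was one of a pair of genes, with RELA, that were lower in THP-1 DMSO than in K562 DMSO. Periplocin gave a log2 fold change of -0.03 (-0.22 to 0.16) in K562 and 0.34 (0.09 to 0.59) in THP-1. The gene shares 40 exon bases (1.72% of its exon length) with SIRT2 on the opposite strand, and the library kit does not mark strand. SIRT2 had 989, 1624, 985 and 1579 counts, and its part in the NFKBIB values was not tested.

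NFKBIE (ENSG00000146232, chromosome 6, 44258166 to 44265788, minus strand) encodes IκBε, the IκB known for its preference for REL and RELA. It had 186, 143, 591 and 435 counts, or 10.9, 8.23, 29.9 and 25.7 CPM, and was lower with periplocin by its counting interval in both lines. Over all genes compared, 38.1% were lower by that interval in K562 and 38.6% in THP-1. The share of genes lower in both lines was not counted, so the joint result has no background beside it. The log2 fold changes of NFKBIE were -0.40 (-0.73 to -0.08) in K562 and -0.22 (-0.40 to -0.04) in THP-1. These are small differences, both within 2-fold, and the upper end in THP-1 is close to 0.

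BCL3 (ENSG00000069399, chromosome 19, 44747705 to 44760044) encodes a nuclear IκB that joins p50 and p52 homodimers on DNA. Counts were 71, 99, 125 and 300, or 4.16, 5.70, 6.33 and 17.7 CPM. The first 3 libraries lay close together and THP-1 periplocin lay far above them. With periplocin the log2 fold change was 1.48 (1.18 to 1.80) in THP-1, at percentile 97.3, and 0.45 (0.00 to 0.91) in K562. The difference between the lines was 1.03 with an SE of 0.27 from counting.

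TNFAIP3 (ENSG00000118503, chromosome 6, 137867188 to 137883312) encodes A20, which edits ubiquitin chains on signalling adaptors and so damps the route to the IκB kinase. It had 462, 645, 736 and 585 counts, or 27.1, 37.1, 37.3 and 34.6 CPM. K562 DMSO was the low library, and the other 3 lay between 34.6 and 37.3 CPM. The log2 fold change was 0.45 (0.28 to 0.63) in K562 and -0.11 (-0.27 to 0.05) in THP-1, where no difference was detectable at this depth. An antisense transcript, AL357060.1, shares 95 exon bases with it.

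**Figure D2:**
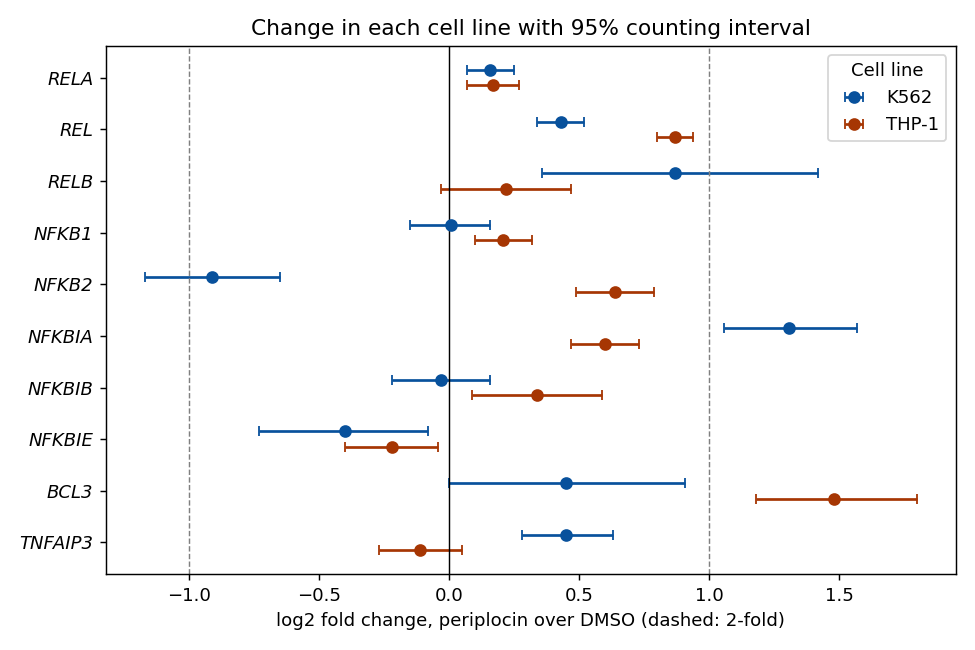
Log2 fold change of each of the 10 genes, periplocin over DMSO (horizontal axis), in K562 (blue) and THP-1 (red), with 95% counting intervals from 1 library per condition; dashed lines mark 2-fold. NFKB2 lies on opposite sides of 0 at -0.91 and 0.64, NFKBIE lies below 0 in both lines, and RELA is nearly the same in both at 0.16 and 0.17.

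Counting intervals placed 5 of the 10 genes above no change in K562 (RELA, REL, RELB, NFKBIA and TNFAIP3) and 2 below (NFKB2 and NFKBIE), with 3 on neither side. Of all genes compared in K562, 37.4% lay above and 38.1% below. In THP-1, 7 genes lay above (RELA, REL, NFKB1, NFKB2, NFKBIA, NFKBIB and BCL3), 1 below (NFKBIE) and 2 on neither side. Over all genes, 36.1% lay above and 38.6% below. RELB, on neither side in THP-1, and NFKBIE had interval ends close to 0 there, so their placement depends on the scaling. RELA, REL and NFKBIA, 3 of 10, were above in both lines, as were 19.3% of all genes compared in both. The median log2 fold change of the 10 genes was 0.29 in K562 and 0.28 in THP-1, and that of all genes was -0.01 and -0.04.

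The DMSO libraries of the lines were compared with each other. THP-1 DMSO was at least 2-fold above K562 DMSO in 3 of the 10 genes and at least 2-fold below in 1, where 25.0% and 22.0% of all genes did so, and the count of higher genes is near that share. RELB was 4.79-fold higher in THP-1 (log2 2.26, 1.82 to 2.74), NFKBIA 4.16-fold (2.06, 1.83 to 2.30) and NFKBIE 2.74-fold (1.45, 1.22 to 1.70). NFKBIB was 2.05-fold lower in THP-1 (-1.04, -1.26 to -0.81) and RELA 1.22-fold lower (-0.28, -0.38 to -0.18). The other genes were higher in THP-1 by less than 2-fold, with log2 differences of 0.21 for REL, 0.46 for TNFAIP3, 0.60 for NFKB2 and for BCL3, and 0.75 for NFKB1.

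Ratios of 2 genes within 1 library do not depend on the scaling between libraries. REL had 1.05 counts for each RELA count in K562 DMSO and 1.27 in K562 periplocin, and 1.48 and 2.41 in THP-1. The balance of these counts moved toward REL in both lines, by a log2 change of 0.27 (SE 0.07) and 0.70 (SE 0.06). Reads of AC010733.2 cannot be told apart from REL where their exons overlap, and their part in this ratio was not tested. The ratio of NFKB2 to NFKB1 was 0.518, 0.275, 0.468 and 0.630, lower with periplocin in K562 and higher in THP-1. For each RELA count there were 0.104, 0.231, 0.525 and 0.708 counts of NFKBIA. The classical inhibitors moved apart: NFKBIA for each NFKBIE count was 0.957, 3.15, 1.45 and 2.56, a log2 change of 1.72 (SE 0.21) in K562 and 0.82 (SE 0.11) in THP-1. BCL3 for each NFKB1 count was 0.102, 0.139, 0.0923 and 0.224. Against REL, NFKBIA moved in opposite directions, up in K562 (0.0983 and 0.182) and down in THP-1 (0.355 and 0.294).

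**Figure D3:**
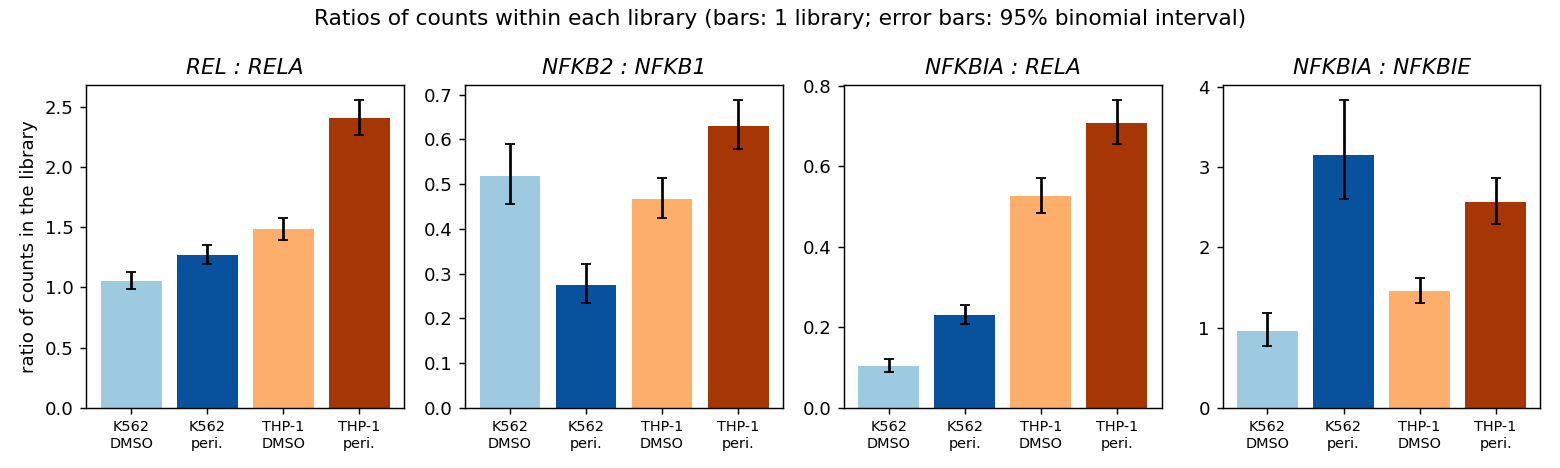
Ratio of counts of a pair of genes within each library (vertical axis, from 0) for REL to RELA, NFKB2 to NFKB1, NFKBIA to RELA and NFKBIA to NFKBIE; each bar is 1 library and the error bar is a 95% binomial interval. The ratio of NFKB2 to NFKB1 is lowest in K562 periplocin at 0.275 and highest in THP-1 periplocin at 0.630, while NFKBIA to NFKBIE is higher with periplocin in both lines.

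Between genes, levels were compared as CPM per kb of annotated exon. In K562 DMSO the order was RELA (18.4 CPM per kb), NFKBIB (11.5), REL (8.05), NFKB1 (6.53), TNFAIP3 (5.36), NFKB2 (4.72), NFKBIA (4.40), NFKBIE (4.22), BCL3 (1.28) and RELB (0.927). The neighbours from TNFAIP3 to NFKBIE, and BCL3 and RELB, did not differ beyond their counting intervals. In K562 periplocin NFKBIA stood at 10.9 CPM per kb, where it did not differ from its neighbours NFKBIB (11.3) and REL (10.8) on this scale. In THP-1 NFKBIA was first, at 18.3 CPM per kb in DMSO and 27.8 in periplocin, ahead of RELA at 15.2 and 17.1. REL stood at 9.31 CPM per kb in THP-1 DMSO and 17.0 in periplocin, where it did not differ from RELA. BCL3 and RELB were the lowest genes in all 4 libraries on this scale. Of the summed CPM per kb of the 5 subunit genes, RELA held 47.7%, 48.8%, 32.2% and 27.0%, and NFKB2 held 12.2%, 5.96%, 15.2% and 17.7%. These levels rest on the exon length used. With the longest coding transcript in its place, RELA was at 26 CPM per kb and REL at 10.9 in THP-1 DMSO, and at 29.3 and 19.9 in THP-1 periplocin, so the near equality of RELA and REL there did not hold. Nor did that of NFKBIA, at 16.6 in K562 periplocin, with NFKBIB at 13.6 and REL at 12.7. In THP-1 NFKBIA remained first at 27.9 and 42.3, and BCL3 at 8.70 CPM per kb in THP-1 periplocin came ahead of NFKBIB, TNFAIP3 and RELB. With the median coding transcript, RELA was first in all 4 libraries, at 130.6, 145.9, 107.3 and 120.8 CPM per kb. The share of RELA among the subunit genes was then 76.0%, 76.6%, 62.6% and 57.2%, and with the longest coding transcript 54.1%, 55.5%, 37.7% and 32.5%, so its size rests on the length, while it was lower in THP-1 than in K562 with each length. The NFKB2 share also rests on the length. It was 4.09%, 1.97%, 6.21% and 7.86% with the median coding transcript. With the longest it was 10.6%, 5.19%, 13.6% and 16.2%.

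The wider pathway was described with a list of 60 other genes for its kinases, adaptors, ubiquitin enzymes and further IκB proteins. In K562, 1 of 57 genes compared was at least 2-fold higher (1.75%) and 6 were lower (10.5%), and the median was 0.06 on the log2 scale. In THP-1, 6 of 59 were higher (10.2%) and 2 lower (3.39%), with a median of 0.25. Over all genes, 10.5% were higher and 12.8% lower in K562 and 9.47% and 12.4% in THP-1, so that the pathway shares of lower genes in K562 and of higher genes in THP-1 are near the background. BIRC3, an inhibitor of apoptosis that ubiquitinates RIPK1 and is itself an NF-κB target, had 52, 142, 59 and 133 counts and was higher in both lines, by 1.41 (SE 0.23) in K562 and 1.39 (SE 0.23) in THP-1 on the log2 scale. In the complex of CARD proteins, BCL10 and MALT1 that links antigen and lectin receptors to the IκB kinase, 3 of 5 genes were at least 2-fold lower in K562. CARD9 had 664, 209, 1441 and 761 counts, with log2 fold changes of -1.69 (SE 0.11) and -0.70 (SE 0.06). MALT1, the protease of that complex, had 771, 1423, 548 and 1254 counts, with log2 fold changes of 0.86 (SE 0.06) and 1.42 (SE 0.07).

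Other genes of the pathway differed by more than 2-fold in at least 1 line. RBCK1, which encodes HOIL-1 of the linear ubiquitin ligase, had 2440 and 541 counts without and with periplocin in K562, and changed by -2.20 (SE 0.07) there and -0.88 (SE 0.06) in THP-1 on the log2 scale. IKBKE, a noncanonical IκB kinase, was lower in K562 by a log2 fold change of -1.68 (SE 0.24) and at 0.35 (SE 0.10) in THP-1. MYD88, the adaptor of Toll-like and interleukin-1 receptors, had 862 and 1866 counts in THP-1, a log2 fold change of 1.34 (SE 0.06), and 0.11 (SE 0.06) in K562. NFKBID, a nuclear IκB like BCL3, was at 1.16 (SE 0.13) in THP-1 and -0.12 (SE 0.26) in K562, and PELI1, a ubiquitin ligase of the interleukin-1 receptor route, at 1.04 (SE 0.11) and -0.19 (SE 0.09). TRAF5, an adaptor of TNF-family receptors, had 485, 180, 25 and 7 counts, or -1.45 (SE 0.13) in K562 and -1.55 (SE 0.62) in THP-1.

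Genes commonly named as NF-κB targets, a list of 72, had a different distribution in each line. In K562, 7 of 47 compared were at least 2-fold higher (14.9%) and 13 lower (27.7%), and the median was -0.26. In THP-1, 25 of 52 were higher (48.1%) and 1 lower (1.92%), with a median of 0.84. The balance in K562 depended on the fold and the filter: 10 targets were higher and 18 lower at 1.5-fold and 3 and 6 at a mean of 5 CPM or more, but 4 and 3 at 4-fold and 15 and 17 with no filter on low counts. In THP-1 these were 35 and 2, 14 and 1, 10 and 1, and 30 and 3. The K562 shares over all genes were 10.5% higher and 12.8% lower, and the THP-1 shares 9.47% and 12.4%. The lists share NFKBIZ, TNIP1, BIRC3 and TRAF1.

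Within the targets, chemokines and cytokines had 2 of 8 genes higher and 5 lower in K562, and 8 of 11 higher in THP-1. Over all genes, 10.5% were higher and 12.8% lower in K562, and 9.47% higher in THP-1. Some of these genes, named for this limit, passed the filter only through the library where they were higher. In K562 they were TNF and LTA, with 0 counts in DMSO, and CXCL2, with 34 and 9 counts. In THP-1, CCL2, CCL3 and LTA had 8, 1 and 9 counts in DMSO, and the LTA interval was -0.21 to 2.41. IL6 had 195 counts in untreated and 50 in treated K562, for a log2 fold change of -1.98 (SE 0.23). CCL2, the monocyte-attracting chemokine, went from 8 to 349 counts in THP-1, 5.58 (SE 0.52). Adhesion and surface genes had 6 of 10 higher in THP-1, with ICAM1, a ligand of leukocyte integrins, going from 63 to 506 counts, 3.22 (SE 0.19), and had 1 higher and 3 lower of 11 in K562, where the early activation antigen CD69 went from 1719 to 257, -2.77 (SE 0.10). Survival and stress genes had 7 of 16 higher in THP-1 and 2 higher and 4 lower of 14 in K562. PLAU, the gene of urokinase, had 321 and 38 counts in K562, -3.09 (SE 0.25). Antigen presentation genes and transcription factors had 4 higher and 1 lower of 15 in THP-1 and 2 higher and 1 lower of 14 in K562, with medians of 0.76 and 0.07. The lower genes were MYC and MYB, respectively, where MYC had a log2 fold change of -2.30 (SE 0.05) in THP-1 and MYB -1.66 (SE 0.03) in K562. Both were also lower in the other line by less than 2-fold, MYC 1.88-fold in K562 and MYB 1.99-fold in THP-1. TNF, named here after its values were seen because its protein starts the pathway, had 0, 25, 239 and 506 counts in the 4 libraries. In K562, with 0 counts in DMSO, no fold is given, and the lower end of the counting interval was 2.63 on the log2 scale. In THP-1 it was 2.47-fold higher, with a log2 counting interval of 1.08 to 1.53. With counts of 3 or fewer set to a floor of 3, the target medians were -0.27 in K562 and 0.84 in THP-1.

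**Figure D4:**
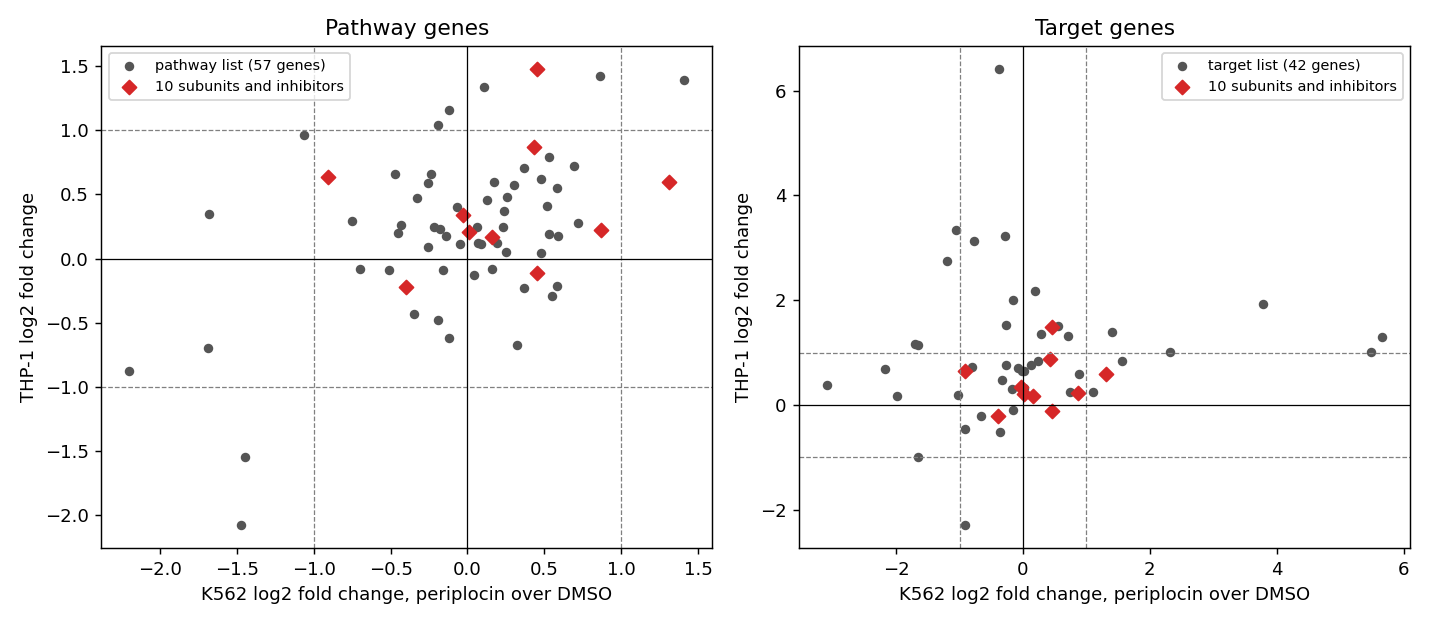
Log2 fold change, periplocin over DMSO, in K562 (horizontal axis) against THP-1 (vertical axis) for 57 pathway genes (left) and 42 target genes (right) compared in both lines, each point 1 gene, with the 10 subunits and inhibitors as red diamonds and dashed lines at 2-fold; TNF and LTA, at 0 counts in K562 DMSO, and CD80, at 0 in THP-1 DMSO, are placed with a prior count of 0.5 and are not bounds. The target genes lie mostly above 0 in THP-1 and on both sides of 0 in K562, while the 10 genes stay between -0.91 and 1.48.

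The profile over the 4 libraries was compared with those of 9790 genes averaging 10 CPM or more, by the root-mean-square difference of centred log2 values. Nearest to BCL3, the gene with the largest summed change, were BRI3 (0.113), THEMIS2 (0.113) and IRF7 (0.119), and its nearest fellow of the 10 genes was REL (0.333). Nearest to RELA were PGRMC2 (0.00924), AHCYL1 (0.0198) and GANAB (0.0213). With only 4 points per profile these distances are a description.

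The only test the design allows is a joint fit of the 4 libraries to treatment and line, in which the lines' unequal responses serve as the error. With edgeR's quasi-likelihood test and Benjamini-Hochberg adjustment, 0 of 13584 genes passed an adjusted p of 0.05 (0%), while 1535 had an unadjusted p under 0.05. By edgeR, NFKBIA had a log2 fold change of 0.96 with an unadjusted p of 0.0288 and an adjusted p of 0.402, REL 0.66 with an adjusted p of 0.456, and BCL3 0.99 with an adjusted p of 0.523. NFKBIA was the only one of the 10 genes with an unadjusted p under 0.05. For NFKB2, which moved oppositely in the lines, the edgeR value was -0.11 with an adjusted p of 0.945. The other genes had edgeR adjusted p-values between 0.686 (RELB) and 0.890 (NFKB1), with RELA at 0.823. DESeq2 called 131 of 11213 genes (1.17%), and 0 of these were among the 10, with adjusted p-values from 0.431 (NFKBIA) to 0.985 (NFKB2). The fit has 1 residual degree of freedom, and a gene that misses its threshold is not shown to be unchanged.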

How the data were processed

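Poly-A RNA of 4 libraries was sequenced as paired-end reads. The labels name an Illumina instrument and the study's methods a T7 platform, and which was used was not settled. The authors deposited one table with an expected count (an estimated count that need not be whole) for each gene in each library, without normalization or pooling, and between 87.4% and 88.3% of values, genes at 0 included, were whole with no rounding. The submitters' processing notes name HISAT2, StringTie 1.3.1 and hg38, with no role or order, and the annotation release is not given in the sources used here. Nothing says how reads from overlapping genes were divided.

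The expected counts were rounded. Totals of 16381149 to 20622694 counts set the precision, and the 10 genes had between 48 and 3790 counts in a library. Python 3.11.15 (pandas 2.3.3, numpy 2.4.6, scipy 1.17.1, matplotlib 3.10.9) and R 4.3.3 were used. TMM factors over the 4 libraries came from edgeR 4.0.16. Log2 fold changes used a prior count of 0.5, and their intervals are exact (Clopper-Pearson) binomial ones. A gene was compared with at least 10 counts in 1 library of the pair and called at a fold of at least 2. Standard errors come from the counts alone. The 4-library fit used genes that reached 10 counts in 2 or more libraries, a common biological coefficient of variation of 0.317, and DESeq2 1.42.0 as the alternative, which gave no adjusted p to 2371 genes. Before use, the fit was run on simulated counts. These had less variation than the real counts and the same change in both lines. That run cannot show how the fit performs on these data. Labels do not state separate cultures, so its p-values measure only the spread between these libraries.

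Coordinates and exon lengths are from GENCODE release 29 on GRCh38, which held 20118 of the 20348 identifiers, and 20310 genes had a symbol. The 10 genes and both lists were chosen with earlier results of these data known. Genes named from the lists are, in each subgroup and line, the one called with the largest log2 fold change at a mean of at least 5 CPM. One such gene is not reported here. The 3 nearest profiles were taken for the gene with the largest summed change and for RELA. Alternatives were total counts, upper-quartile factors and DESeq2's size factors, TMM within each line, unrounded values, a prior count of 2, folds of 1.5 and 4, filters at 5 CPM or none and, chosen after seeing the data, the median and the longest coding transcript for levels per kb.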

Additional observations from a re-analysis of the deposited data

Results flagged for a closer look

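NFKB2 was set apart because its counts moved in opposite directions in the lines. The log2 fold change in THP-1 exceeded that in K562 by 1.55 with an SE of 0.15 from counting, and the difference itself was not tested, since 1 library per condition leaves no replicate error for it. Over all genes compared in both lines, 19.4% had counting intervals on opposite sides of no change, so 1 of 10 is no more than the background share.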

How the results depend on the processing

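All 120 alternative log2 fold changes of the 10 genes stayed within the counting interval, with a largest move of 0.04. All 40 alternative differences between the lines stayed within their SE. In THP-1 such a move is about as large as the distance from 0 of the RELB interval end at -0.03 and the NFKBIE end at -0.04. With DESeq2's size factors RELB was at 0.26 and NFKBIE at -0.18, so their placement beside no change depends on the scaling. NFKB1 in K562, which is near 0, ranged from -0.03 to 0.02. Scaling moved the median of all genes by at most 0.04. Counts followed the fold and the filter by construction. At 1.5-fold, 2 of the 10 genes were higher and 1 lower in K562 and 4 were higher in THP-1, and at 4-fold 0 were higher in either line. Over all genes in K562, 2605 were higher and 2949 lower at 1.5-fold, 402 and 442 at 4-fold, 2641 and 2494 with no filter, and 737 and 900 at 5 CPM. In THP-1 they were 2466 and 3065, 415 and 401, 2181 and 2492, and 640 and 871. Pathway genes in K562 were 5 higher and 8 lower at 1.5-fold, 0 and 1 at 4-fold, and 2 and 7 with no filter. In THP-1 they were 15 higher and 7 lower at 1.5-fold, 0 and 1 at 4-fold, and 0 lower at 5 CPM. Targets in K562 were 4 higher and 3 lower at 4-fold, 15 higher and 17 lower with no filter, and 3 higher and 6 lower at 5 CPM. In THP-1 they were 10 higher and 1 lower at 4-fold, 14 and 1 at 5 CPM, 25 and 2 with total counts, 35 and 2 at 1.5-fold, and 30 and 3 with no filter. At 5 CPM the target medians were -0.16 in K562 and 0.71 in THP-1. The 4-library fit by edgeR called 0 genes, 1 with no filter and 1 with total counts, and DESeq2 called 131; the cause was not tested. No paired analysis was possible because each group holds 1 library and the labels carry no replicate numbers, apart from the 4-library fit, which compares treatments within each line, and no library could be left out. Depth limits RELB and BCL3 in K562 most, with 48 and 71 counts in DMSO.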
